A study of Drosophila melanogaster with 17 samples.

Results

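Control esg+ cells of the adult Drosophila midgut made up 6 of the 17 libraries of the study, 3 in batch 2 and 3 in batch 1. They were chosen by their labels alone, as the 2 groups called control. The study sorted progenitor cells by fluorescence and sequenced their messenger RNA to compare genotypes that alter the bHLH factors Daughterless and Scute, and each batch had controls of its own beside UAS-da:da and UAS-scute in batch 2 and UAS-da and UAS-da-RNAi in batch 1. Flies of the controls carried esg-Gal4, UAS-GFP and tub-Gal80[ts] and came from a cross to a control strain, so that GFP is the one responder their labels name. The Gal4 driver is under the control of escargot (esg), and a ubiquitous temperature-sensitive Gal80 kept it off. All flies were kept at 18 °C until adulthood and at 29 °C for 2 days before dissection, and the labels give neither their sex nor their age at dissection. For each library about 100 midguts were pooled, separately from those of other replicates, and 20000 to 40000 GFP+ cells were sorted. Their RNA (PicoPure extraction) went through RiboAmp amplification before stranded TruSeq library preparation. Batch 2 was read as pairs of 150 nt and batch 1 as single reads of 50 nt. Batch therefore stands for read layout and for whatever else differed between the batches, which may include sequencing run, time and flies. These cannot be told apart.

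The midgut epithelium is renewed by intestinal stem cells, which express the Notch ligand Delta (Dl) and divide to give enteroblasts and enteroendocrine precursors. The zinc finger repressor Escargot keeps stem cells and enteroblasts undifferentiated, so the esg driver labels both. Enteroblasts receive the Notch signal and mature into absorptive enterocytes, whereas precursors that escape it switch on Prospero (pros) and become hormone-secreting enteroendocrine cells. E proteins such as Daughterless (Da) dimerise on DNA with themselves or with proneural partners such as Scute (Sc), and Extramacrochaetae (Emc) sequesters them.

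Reads assigned to genes numbered 59788400, 54713908 and 66679229 in the 3 batch 2 controls, where each mate of a pair counted once, and 37801591, 37555228 and 37151117 in the 3 batch 1 controls. Genes with at least 1 count numbered 15858 to 16080 in batch 2 and 11956 to 12210 in batch 1, of 17807 listed. After random thinning of every library to about 27353190 counts, the ranges were 15434 to 15789 in batch 2 and 11651 to 11844 in batch 1. Levels of a gene in different libraries are given in CPM, counts relative to a library size scaled by TMM, the trimmed-mean factor of edgeR. Levels of different genes are compared in TPM, counts per kilobase of exon scaled to the same sum in each library, and ranks are ranks of the mean TPM of a batch. Batch 1 replicate 3 stood apart from its group: counts differed from those of replicates 1 and 2 by a chi-square of 119 and 68.7 per gene, against 42.3 between replicates 1 and 2 and 49.6 to 61.9 between batch 2 controls.

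Control esg+ cells expressed 7080 genes at 1 CPM or more in every control library, counted against the unscaled total. That level was reached in all 3 batch 2 libraries by 8351 genes and in all 3 batch 1 libraries by 7237, so 1271 genes passed in batch 2 alone and 157 in batch 1 alone. At equal total counts, in which mates of a pair still counted singly in batch 2, the shared count was 7065, with 1246 in batch 2 alone and 153 in batch 1 alone. Protein-coding genes made up 6880 of the 7080, and 134 were ncRNA genes. Genes detected in batch 2 alone were weakly expressed there, with a median of 2.24 CPM against 23.8 CPM for genes detected in both batches. Only 16 of those 1271 had no count at all in batch 1. At 100 CPM or more, 815 genes passed in both batches, 197 in batch 2 alone and 177 in batch 1 alone.

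A small set of genes held most of the counts. The 100 genes with the most counts took 53.7% to 55.2% of all counts in batch 2 and 54.6% to 57.2% in batch 1, and the first 1000 took 82.2% to 82.7% in batch 2 and 83.0% to 84.5% in batch 1. The large ribosomal RNA of the mitochondrion, mt:lrRNA, alone took 14.1% to 17.2% of the counts of a batch 2 library and 5.68% to 7.46% of a batch 1 library. Among nuclear genes the noncoding RNA lncRNA:CR34335 (chromosome X, 3545750 to 3546110, BDGP6.28) had the most reads per kilobase in both batches, with a mean of 35640 ± 3129 TPM in batch 2 and 63580 ± 2736 TPM in batch 1 (SD, n = 3 each). The ribosomal protein gene RpL41 had the highest level of all protein-coding genes in both batches, with 28660 ± 2435 TPM in batch 2 and 32370 ± 2425 TPM in batch 1 (SD, n = 3 each), and ranked 4 and 3.

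Ribosomal proteins filled the top of the order. Of the 100 genes with the highest TPM, 76 in batch 2 and 71 in batch 1 encoded ribosomal proteins, and 70 did so in both. Transcripts of the mitochondrial genome gave 8 in batch 2, 7 in batch 1 and 7 in both, and translation factors 5, 4 and 3. The elongation factor gene eEF1alpha1 ranked 17 in batch 2 and 12 in batch 1, and eEF5 ranked 36 and 28. Other named members of both top lists were the cytoskeletal genes Act5C (83 in batch 2, 99 in batch 1) and alphaTub84B (76 and 59) and the growth-associated Tctp (87 and 86). Genes outside all 30 lists that were in the top 100 of both batches, and were picked out after their values were seen, included the cyclophilin gene Cyp1 (77 and 73), the nucleoside diphosphate kinase awd (79 and 72), the histone gene His4r (78 and 81), the cofilin gene tsr (93 and 63) and the glutathione transferase GstD1 (100 and 78).

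**Figure D1:**
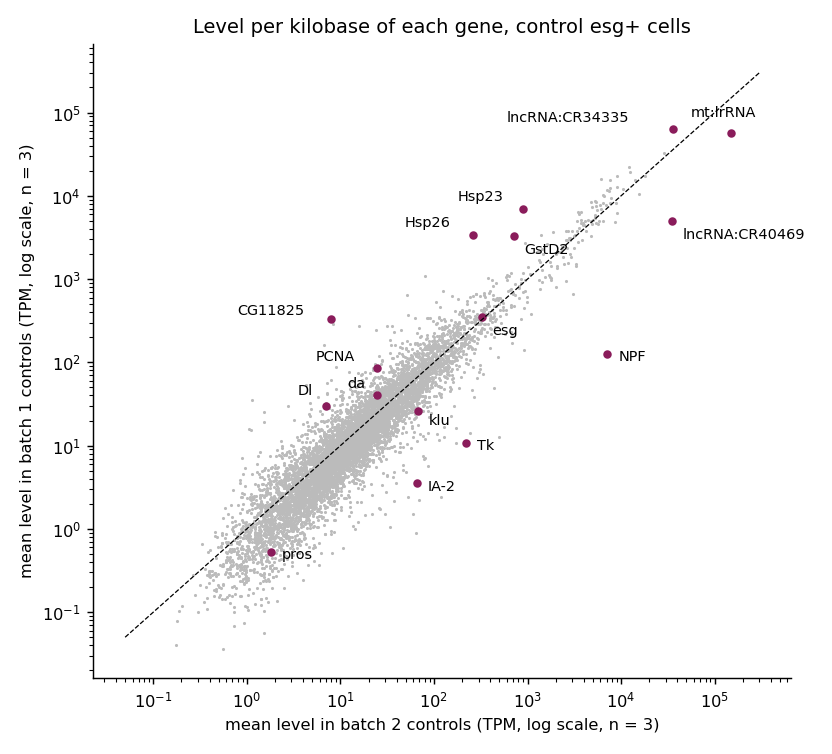
Mean level of each gene with at least 1 CPM in both batch means, in TPM on log axes, with batch 2 controls on the horizontal and batch 1 controls on the vertical axis (n = 3 each); the dashed line marks equal levels. Most genes lie near the line, esg among them (325 TPM in batch 2, 355 TPM in batch 1), while NPF, Tk and IA-2 lie to its right and Hsp23, Hsp26, GstD2 and CG11825 above it.

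The order of genes was largely the same in both batches. The top 100 by TPM shared 89 genes, and the top 100 by unscaled CPM shared 83. The share was 7 of 10, 43 of 50, 392 of 500, 825 of 1000 and 4548 of 5000 at other depths of the list. Over the 7080 genes detected in both batches, Spearman's rho between 2 libraries was 0.910 to 0.924 across batches, 0.988 to 0.992 within batch 2 and 0.982 to 0.992 within batch 1. These are correlations across genes, which are not independent replicates.

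Rank bins at both ends of the order kept the most genes. The 7080 genes were cut into 10 bins of 708 by their batch 1 rank. Of the bin with the highest levels 81.2% were in the same bin by batch 2 rank, and of the lowest bin 67.1%. In bins 5 and 7 the shares were 29.5% and 28.8%. An end bin can lose genes to 1 side only, so part of this shape comes with the binning. No expected share was computed. The median gene moved by 5.54 percentile points, 71% of genes moved by 10 points or fewer, and 4.03% moved by more than 25.

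**Figure D2:**
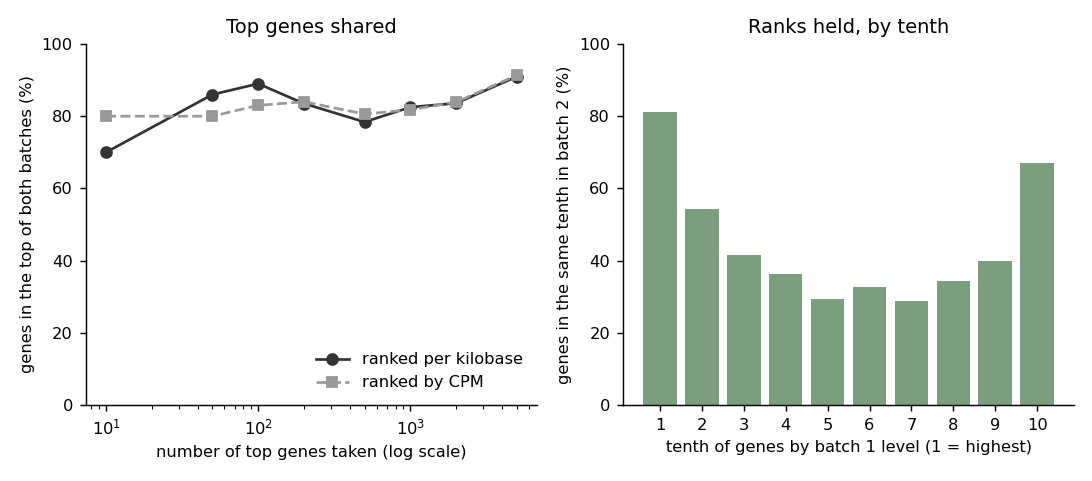
Left, share of the top genes of one batch that are also top genes of the other, against the number taken (log axis), ranked by TPM (circles) or by CPM (squares). Right, share of genes that fall in the same of 10 rank bins in both batches, by batch 1 bin, over 7080 genes; the bars are 81.2% for the highest bin, 28.8% for bin 7 and 67.1% for the lowest.

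Most genes found in only 1 of the top 100 lists stood close to it in the other batch, such as RpS26 (90 in batch 2, 104 in batch 1) and bic (109 in batch 2, 85 in batch 1). The 3 genes in the batch 2 top 100 that ranked lowest in batch 1 were NPF (21 in batch 2, 572 in batch 1), mt:ND1 (68 and 147) and the helicase gene eIF4A (91 and 131). The 3 in the batch 1 top 100 that ranked lowest in batch 2 were the small heat shock genes Hsp26 (272 in batch 2, 64 in batch 1) and Hsp23 (125 and 30) and the glutathione transferase GstD2 (135 and 67). Another noncoding RNA, lncRNA:CR40469, ranked 3 in batch 2 and 44 in batch 1.

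Tested gene by gene, most levels differed between the batches. Of 11440 genes with enough counts, 7998 (69.9%) were called by edgeR's quasi-likelihood test at a Benjamini-Hochberg adjusted p under 0.05, 4446 (38.9%) as higher in batch 2 and 3552 (31.0%) as lower. At least 2-fold differences were called for 4888 genes (42.7%), 3379 higher (29.5%) and 1509 lower (13.2%), and the CPM values of the groups did not overlap for 8463 genes (74.0%). With library totals in place of TMM, an alternative added after the data were seen, every log2 difference moved up by about 0.39, and 5936 genes were higher and 2052 lower, 74.3% of calls higher against 55.6% with TMM. A stricter filter left 8292 genes, of which 2860 were higher and 2691 lower, 51.5% of calls higher. Differences below are on the TMM scale and are to be read against the shares over all 11440 genes tested.

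The difference followed the level and the length of a gene. Tested genes were cut into 5 equal bins by mean level. The filter let a gene in by its counts in 1 batch alone. Applied to each control group by itself, it kept 11656 genes in batch 2 and 8424 in batch 1. Medians of the lowest bins therefore depend on the filter. In the lowest bin (0.0988 to 0.546 CPM) the median log2 of batch 2 over batch 1 was 2.78, and in the next it was 1.03. In the other bins, in rising order of level, it was -0.10, -0.26 and -0.37. In 5 bins of detected genes by exon length the median log2 was -0.71 for the shortest (100 to 1179 bases) and 0.0883 for the longest (4244 to 69810 bases).

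**Figure D3:**
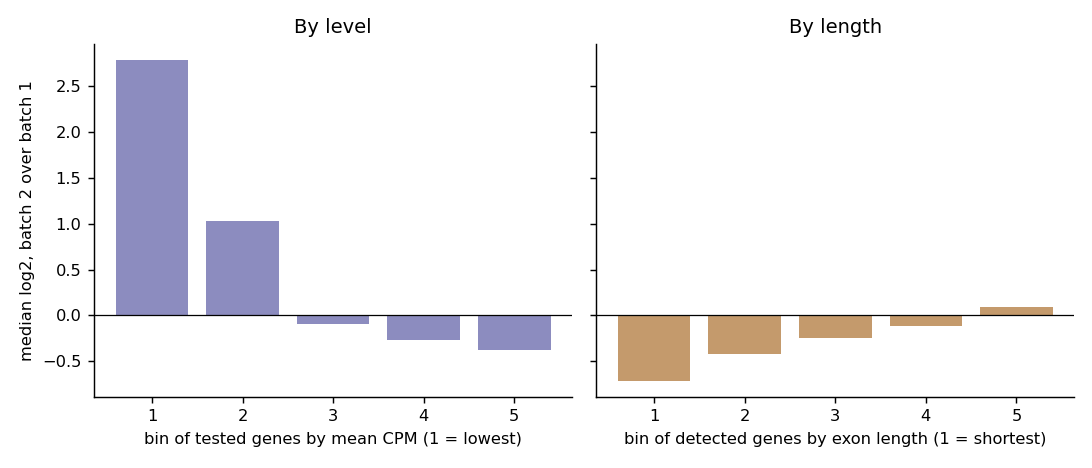
Median log2 difference, batch 2 over batch 1, TMM scale. Left, tested genes in 5 bins by mean CPM, from 2.78 in the lowest to -0.37 in the highest. Right, genes detected in both batches in 5 bins by exon length, from -0.71 in the shortest to 0.0883 in the longest.

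Progenitor markers were present throughout. All 18 genes of the list were detected in both batches, and together they took 0.394% ± 0.0205 of the counts in batch 2 and 0.324% ± 0.0142 in batch 1 (SD, n = 3 each). The level of esg (chromosome 2L, 15333866 to 15336138) was 499.7, 519 and 481 CPM in the batch 2 controls and 704.5, 699 and 968 CPM in the batch 1 controls. The groups did not overlap. The log2 difference was -0.66 ± 0.14 (SE), with an adjusted p of 0.0021, and with library totals it was -0.26 with an adjusted p of 0.0729. Its place in the order was almost fixed, at rank 227 in batch 2 and 226 in batch 1, with 325 ± 14.9 TPM and 355 ± 48.8 TPM (SD, n = 3 each). In bulk samples such as these, fewer cells of a type and less RNA per cell cannot be told apart.

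Transcription and RNA factors of progenitors were among the better expressed genes of the list. Sox100B, a Sox factor of stem cells, ranked 311 in batch 2 and 575 in batch 1, and lin-28, an RNA-binding protein, ranked 555 and 766. The JAK-STAT effector Stat92E (760 and 1033), the zinc finger gene peb (917 and 1061) and the RNA-binding Imp (1513 and 1982) did not pass the test, with adjusted p of 0.570, 0.0544 and 0.793 by edgeR's quasi-likelihood test. Sox21a, which drives enteroblasts toward differentiation, had 73.1, 62.1 and 85.3 CPM in batch 2 and 170.2, 157 and 126 CPM in batch 1, with no overlap (log2 -1.04, adjusted p 0.000236). In all, 5 of the 18 were higher in batch 2, 5 were lower and 3 of those at least 2-fold lower. Of all genes tested 38.9% were higher, 31.0% lower and 13.2% at least 2-fold lower. The median log2 of the list was -0.02, against 0.11 over all genes tested. With library totals 10 of the 18 were higher and 3 lower, and the list median was 0.38.

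The Notch ligand gene was lower in batch 2 and its receptor gene higher. The stem cell marker Dl (chromosome 3R, 19302731 to 19326217) had 21.1, 29.6 and 24.5 CPM in batch 2 and 199, 175 and 78.4 CPM in batch 1. All batch 2 libraries lay below all batch 1 libraries, by a log2 of -2.59 ± 0.31 (SE, adjusted p 7.98e-05), and its rank was 5052 in batch 2 and 1912 in batch 1. The enteroblast factor klu had 197, 218 and 237 CPM in batch 2 and 116, 112 and 137 CPM in batch 1, again with no overlap (log2 0.84 ± 0.12, adjusted p 0.000218). The receptor gene N was also higher in batch 2 (335, 393 and 453 CPM against 277, 293 and 282 CPM, log2 0.47, adjusted p 0.00671). Su(H), the DNA-binding effector of Notch, was low in both batches, with 10.4, 10.9 and 10.9 CPM in batch 2 and 7.64, 7.42 and 9.44 CPM in batch 1. Its call (log2 0.39, adjusted p 0.0264) was lost in 4 of the 6 fits that left out a library, with adjusted p up to 0.164. The sorting factor spdo, picked after its values were seen, went with Dl (log2 -1.96, adjusted p 0.000171).

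**Figure D4:**
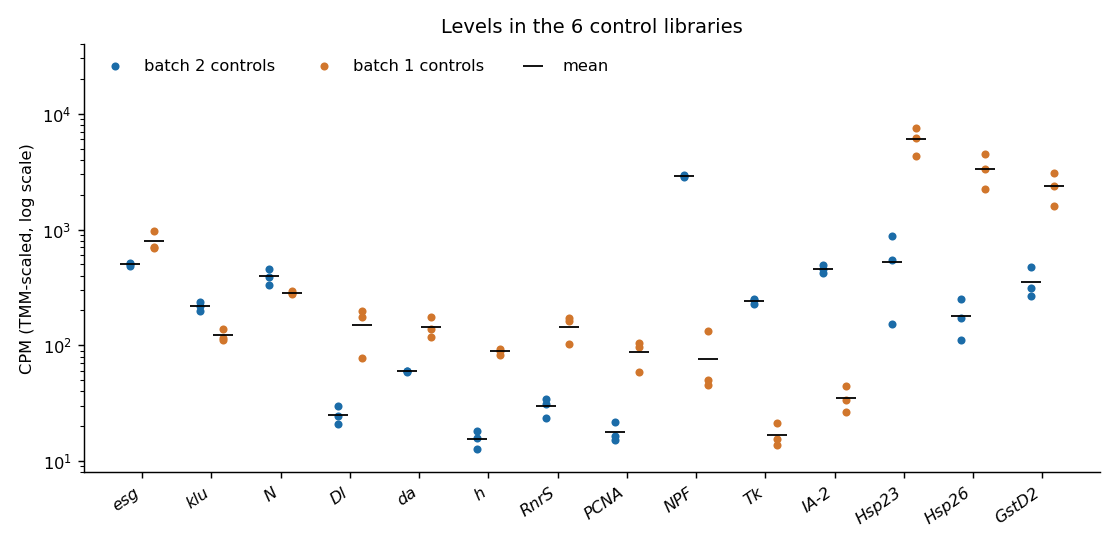
Level of 14 genes in each control library, in TMM-scaled CPM on a log axis; for each gene the 3 batch 2 controls are left of the 3 batch 1 controls, and bars mark the means. The groups do not overlap for any of the 14; Dl, da, h, RnrS, PCNA, Hsp23, Hsp26 and GstD2 are lower in batch 2, and NPF, Tk and IA-2 are higher by log2 of 5.25, 3.84 and 3.72.

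Targets of Notch were led by 3 genes of the E(spl) complex in both batches. E(spl)malpha-BFM, a Bearded family gene, ranked 103 in batch 2 and 125 in batch 1, above esg, with 643, 608 and 720.5 CPM in batch 2 and 615, 473 and 745.5 CPM in batch 1. The repressor genes E(spl)mbeta-HLH (137 and 144) and E(spl)m3-HLH (190 and 354) followed. The other 8 members stood at rank 2483 or lower in the order in both batches. None of the 11 was higher and 7 were lower in batch 2, 5 of them at least 2-fold. Shares over all genes tested were 38.9% higher, 31.0% lower and 13.2% at least 2-fold lower. E(spl)m7-HLH had 3.94, 6.64 and 7.50 CPM in batch 2 and 21.4, 16.2 and 20.5 CPM in batch 1 (log2 -1.68, adjusted p 0.000163). With library totals 2 of the 11 were higher and 4 lower. The summed share of the list was 0.172% ± 0.0176 in batch 2 and 0.136% ± 0.0209 in batch 1 (SD, n = 3 each). Shares are of unscaled counts.

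Genes of the signals that reach progenitors were expressed at middle levels. The EGF ligand gene spi had 192, 232 and 288 CPM in batch 2 and 319, 287 and 286 CPM in batch 1, and overlapped (adjusted p 0.0711). The feedback inhibitors sty, of receptor tyrosine kinases, and Socs36E, of JAK-STAT, ranked 445 and 567 in batch 2 and 864 and 769 in batch 1. The receptor gene Egfr had 77.4, 109 and 106 CPM in batch 2 and 70.7, 91.9 and 89.1 CPM in batch 1, and did not pass the test (adjusted p 0.239). Beside 38.9% higher and 31.0% lower of all genes tested, 6 of the 18 listed genes were higher and 2 lower in batch 2. With library totals the counts were 10 and 2. The 2 lower ones were the cytokine gene upd3 (37.9, 26.2 and 41.6 CPM in batch 2, 75.0, 64.1 and 63.9 CPM in batch 1) and the receptor gene Pvr.

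Within the bHLH network emc and da had the highest TPM in batch 2 (ranks 2144 and 2363) and da and h in batch 1 (ranks 1494 and 1556). The level of da was 59.6, 59.3 and 59.6 CPM in batch 2 and 118, 138 and 175 CPM in batch 1, a log2 of -1.27 ± 0.14 (SE, adjusted p 5.57e-05) with no overlap. Its inhibitor emc had 31.5, 36.0 and 46.9 CPM in batch 2 and 49.8, 46.4 and 43.6 CPM in batch 1, and these overlapped (adjusted p 0.103). Hairy (h), a repressor of the same superfamily, was lower in batch 2, with 15.8, 12.7 and 18.4 CPM against 93.3, 82.7 and 90.0 CPM (log2 -2.50, adjusted p 2.04e-06). The proneural gene sc was scarce in both batches, at 1.36, 1.33 and 1.38 CPM in batch 2 and 4.21, 3.75 and 2.73 CPM in batch 1 (log2 -1.39, adjusted p 0.000555). Of the 16 members 7 were detected in batch 2 and 5 in batch 1, and ac and ato had no count in any batch 1 library.

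Peptide hormones of enteroendocrine cells differed widely between the batches, in both directions. Neuropeptide F (NPF, chromosome 3R, 16609220 to 16611325) had 2826, 2941 and 2926 CPM in the batch 2 controls and 45.8, 50.1 and 132 CPM in the batch 1 controls. Every batch 2 library lay above every batch 1 library, by a log2 of 5.25 ± 0.41 (SE, adjusted p 8.99e-06). Tachykinin (Tk) had 229, 253 and 245 CPM in batch 2 and 13.8, 21.4 and 15.7 CPM in batch 1, with no overlap (log2 3.84 ± 0.17, adjusted p 6.63e-07). Myoinhibiting peptide (Mip), picked after its values were seen, had 28.7, 21.8 and 23.2 CPM in batch 2 and 0.788, 0.173 and 0.358 CPM in batch 1 (adjusted p 2.70e-06).

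The hormones did not all go the same way. Allatostatin C (AstC), the peptide of another set of enteroendocrine cells, had 22.4, 32.1 and 33.9 CPM in batch 2 and 104, 64.1 and 35.5 CPM in batch 1 and was lower in batch 2 (log2 -1.20, adjusted p 0.00812). So were CCHa1 (log2 -2.28, adjusted p 0.00192) and ITP (log2 -0.91, adjusted p 0.000129), which were picked after their values were seen. In all 5 of the 12 hormone genes were higher, all at least 2-fold, and 4 were lower. These counts lie near the 38.9% higher and 31.0% lower of all genes tested. NPF made up most of the list in batch 2, and the list took 0.379% ± 0.0100 of the counts in batch 2 and 0.0332% ± 0.00327 in batch 1 (SD, n = 3 each).

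The machinery of hormone processing and release was higher in batch 2 in 9 of its 11 genes, each at least 2-fold, beside the 29.5% of all tested genes. IA-2, a dense-core vesicle protein, had 460, 495 and 424 CPM in batch 2 and 44.3, 33.9 and 26.4 CPM in batch 1 (log2 3.72, adjusted p 1.33e-06), and 7B2, a chaperone of prohormone convertase 2, had 82.6, 87.5 and 92.3 CPM against 17.7, 12.04 and 9.44 CPM (log2 2.74, adjusted p 7.45e-06). Phm, the peptide amidation enzyme, overlapped between the batches, with 124, 119 and 125 CPM in batch 2 and 123, 105 and 112 CPM in batch 1. The vesicle gene Syt4 was the one member lower in batch 2 (log2 -2.63, adjusted p 4.76e-06).

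Transcription factors of enteroendocrine cells were low in both batches. The level of pros was 29.2, 33.9 and 28.8 CPM in batch 2 and 18.1, 13.4 and 6.87 CPM in batch 1 (log2 1.26, adjusted p 0.00273), and per kilobase it ranked 7400 and 7917. The bHLH gene tap, which acts in this lineage, had 5.19, 7.38 and 6.44 CPM in batch 2 and 0.182, 0.144 and 0.228 CPM in batch 1, with no overlap (log2 5.09, adjusted p 2.00e-06). Ptx1, a homeobox gene, was the best expressed of the list (rank 3491 in batch 2, 4744 in batch 1), and phyl, an adaptor of the commitment step, did not pass the test (adjusted p 0.0775). Of the 9 genes 5 were higher in batch 2, 4 of them at least 2-fold, and none was lower. Shares over all genes tested were 38.9% higher, 29.5% at least 2-fold higher and 31.0% lower. The list median log2 was 1.00. Over all genes tested the median was 1.03 at 0.546 to 3.02 CPM and -0.26 at 14.4 to 45.0 CPM, the range that holds pros and Ptx1.

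Enterocyte genes were present, with 9 of 12 detected in each batch. Myo31DF, a brush border myosin, had 359, 288 and 284 CPM in batch 2 and 448, 437 and 510 CPM in batch 1, and GATAe, a GATA factor of the midgut, had 131, 128 and 143 CPM in batch 2 and 193, 196 and 184 CPM in batch 1. Both were called lower in batch 2 (log2 -0.58 and -0.51, adjusted p 0.00220 and 0.00101) and neither was with library totals (adjusted p 0.176 and 0.340). Ssk, of the smooth septate junction, was lower by a log2 of -1.39 (adjusted p 0.00381). The enterocyte POU factor nub was low in both batches, with 1.87, 3.46 and 3.57 CPM in batch 2 and 2.49, 1.47 and 3.68 CPM in batch 1. Of 12 genes 2 were higher and 6 lower in batch 2, beside 38.9% and 31.0% of all genes tested. The list median log2 was -0.29. With library totals 5 were higher and 4 lower and the median was 0.10, so the list had no direction that held under both scalings.

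Digestive enzymes varied widely between libraries. Of 47 genes 31 were detected in batch 2 and 10 in batch 1. Of the 41 tested 26 were at least 2-fold higher in batch 2 and 2 at least 2-fold lower. Those shares over all genes tested were 29.5% and 13.2%. The trypsin gene alphaTry had 187, 246 and 424 CPM in batch 2 and 26.4, 1.41 and 4.26 CPM in batch 1, with no overlap (log2 4.74 ± 0.89, adjusted p 0.00106, or log2 6.63 without batch 1 replicate 1). The protease gene Jon65Aiv had 187, 241 and 459.6 CPM in batch 2 and 258, 11.6 and 38.9 CPM in batch 1, and Jon65Aiii had 119, 177.5 and 291.5 CPM in batch 2 and 162, 7.01 and 17.1 CPM in batch 1. For both, batch 1 replicate 1 lay within the range of batch 2 and the test was not passed (adjusted p 0.144 and 0.130). Without that library they were higher in batch 2, with log2 of 3.51 and 3.98 and adjusted p of 0.000486 and 0.000106. The summed share of the list was 0.168% ± 0.0679 in batch 2 and 0.0248% ± 0.0280 in batch 1 (SD, n = 3 each), where replicate 1 had 0.0570% and the others 0.00673% and 0.0106%. Trypsins and Jonah proteases are families of similar genes, and reads that map to several members were not counted.

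Regional identity factors of the gut were found for several regions together. The homeobox genes exex (rank 2551 in batch 2, 3620 in batch 1), cad of the posterior midgut (3469 and 3777) and Ptx1 led, and 11 of 12 factors were detected in batch 2 and 7 in batch 1. The level of exex was 31.4, 39.4 and 37.1 CPM in batch 2 and 24.4, 25.8 and 27.3 CPM in batch 1 (log2 0.48, adjusted p 0.00433). That of cad overlapped, with 23.0, 24.5 and 28.2 CPM in batch 2 and 25.9, 20.8 and 31.8 CPM in batch 1 (adjusted p 0.786).

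Genes of DNA replication were lower in batch 2. Of 14, all detected in both batches, 10 were called lower, 9 of them at least 2-fold, and none higher, beside 31.0% and 13.2% of all genes tested. The sliding clamp gene PCNA (chromosome 2R, 20261754 to 20262883) had 15.1, 16.4 and 21.9 CPM in batch 2 and 105.5, 97.5 and 58.9 CPM in batch 1 (log2 -2.29 ± 0.23, adjusted p 3.02e-05). RnrS, the small subunit of ribonucleotide reductase, had 23.6, 31.3 and 34.1 CPM in batch 2 and 170.5, 161 and 103 CPM in batch 1 (log2 -2.29, adjusted p 1.90e-05). The large subunit gene RnrL was lower by a log2 of -1.54 (adjusted p 0.000168). In all these the groups did not overlap, and batch 1 replicate 3 was the lowest of its group. The share of the list was 0.0148% ± 0.00268 in batch 2 and 0.0381% ± 0.0112 in batch 1 (SD, n = 3 each). With library totals 9 were lower, 5 of them at least 2-fold, and 1 was higher.

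Mitotic genes overlapped more. Of 28 genes 15 were lower in batch 2 and 1, the checkpoint kinase gene Bub1, was higher. Over all genes tested the shares were 31.0% lower and 38.9% higher. The kinase gene polo had 30.1, 29.6 and 30.7 CPM in batch 2 and 88.3, 77.1 and 38.1 CPM in batch 1 (log2 -1.17, adjusted p 0.00233). Cdk1 overlapped, with 12.01, 13.1 and 15.8 CPM in batch 2 and 33.6, 28.3 and 14.3 CPM in batch 1, was called lower (log2 -0.90, adjusted p 0.0126) and was not with library totals (adjusted p 0.113). CycA had 33.1, 40.3 and 39.2 CPM in batch 2 and 52.7, 42.4 and 31.1 CPM in batch 1 and did not pass (adjusted p 0.428). The summed level of the list was 290.4 to 358 CPM of unscaled totals in batch 2 and 251 to 473.5 CPM in batch 1, with batch 1 replicate 3 the lowest of all 6. Without that library 21 of the 28 were lower, 13 of them at least 2-fold. With library totals 9 were lower and 3 higher. The median rank of the mitotic list was 6023 in batch 2 and 5246 in batch 1, and that of the replication list 6738 in batch 2 and 4781 in batch 1.

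Ribosomal protein genes, the largest class by reads, took 26.1% ± 1.57 of the counts in batch 2 and 33.8% ± 2.71 in batch 1 (SD, n = 3 each). Of 86 tested 62 were lower in batch 2, 22 of them at least 2-fold, and 4 were higher, with a median log2 of -0.67. With library totals 43 were lower and 15 higher and the median was -0.28. Shares over all genes tested were 31.0% lower, 13.2% at least 2-fold lower and 38.9% higher. Detected genes of 100 to 1179 bases had a median log2 of -0.71. RpS12, RpL23, RpS23, RpL39 and RpS30 have 288 to 865 bases. The part of gene length in the list's difference was not tested. The median rank of the list was 57.5 in both batches. RpS12 had 2454, 2372 and 2727 CPM in batch 2 and 8901, 8593 and 11480 CPM in batch 1 (log2 -1.94, adjusted p 8.39e-06) and ranked 28 and 8. RpL23, RpS23 and RpL39 were lower by log2 of -1.41, -1.46 and -1.56, while RpS30 did not pass the test (adjusted p 0.0843). RpL34b, picked after its values were seen, went the other way (log2 1.37, adjusted p 2.04e-05). Many of these genes have near-identical copies elsewhere in the genome, and multi-mapping reads were not counted, so their levels are uncertain.

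Translation factors followed with 3.64% ± 0.0198 of the counts in batch 2 and 4.66% ± 0.0933 in batch 1 (SD, n = 3 each). The gene eEF1alpha1 had 12680, 12840 and 12580 CPM in batch 2 and 29490, 29430 and 30920 CPM in batch 1 (log2 -1.24, adjusted p 3.51e-05), while eIF4A was higher in batch 2, with 3572, 3289 and 3377 CPM against 1777, 1847 and 2155 CPM (log2 0.83, adjusted p 0.000229). Of 12 genes 6 were lower and 2 higher in batch 2, beside 31.0% and 38.9% of all genes tested. With library totals 3 were lower and 6 higher, so the list had no direction that held under both scalings. The call of Tctp (log2 -0.41, adjusted p 0.00541) was lost with library totals (adjusted p 0.889).

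Transcripts of the mitochondrial genome took 21.0% ± 2.23 of the counts in batch 2 and 12.2% ± 1.79 in batch 1 (SD, n = 3 each). Of 23 tested genes 8 were higher and 12 lower in batch 2, beside 38.9% and 31.0% of all genes tested. The list median log2 was -0.47. With library totals 9 were higher and 9 lower and the median was -0.0864. The ribosomal RNA mt:lrRNA, which had most of these counts in batch 2, was higher there (log2 0.87, adjusted p 0.00207). Messenger RNA of cytochrome oxidase subunit 2, mt:CoII, was lower in batch 2, with 5255, 6258 and 5643 CPM against 14060, 12170 and 12540 CPM (log2 -1.18, adjusted p 5.67e-05), and mt:ND1 was higher (1818, 2299 and 1709 CPM against 748, 495 and 550.4 CPM, log2 1.70, adjusted p 4.29e-05). mt:CoI ranked 5 in batch 2 and 7 in batch 1 and overlapped between them. Its call (log2 -0.47, adjusted p 0.0378) was lost with library totals (adjusted p 0.655). Genes of the mitochondrial genome lie head to tail or on opposite strands, and counting ignored strand.

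Nuclear genes of oxidative phosphorylation took 1.10% ± 0.0513 of the counts in batch 2 and 1.63% ± 0.176 in batch 1 (SD, n = 3 each). Of 70 tested 57 were lower in batch 2, 31 of them at least 2-fold, and 9 were higher, with a median log2 of -0.94. With library totals 45 were lower and 11 higher and the median was -0.55. Shares over all genes tested were 31.0% lower, 13.2% at least 2-fold lower and 38.9% higher. Detected genes of 100 to 1179 bases had a median log2 of -0.71. The ATP synthase gene ATPsynO had 197, 198 and 221 CPM in batch 2 and 857, 814 and 763 CPM in batch 1 (log2 -1.98, adjusted p 1.67e-06), and ATPsynC was lower by a log2 of -0.99 (adjusted p 0.000226). The subunit gene ATPsynbeta was lower by a log2 of -0.60 (adjusted p 0.00147), a call lost with library totals (adjusted p 0.128).

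Proteasome genes took 0.294% ± 0.0151 of the counts in batch 2 and 0.362% ± 0.0421 in batch 1 (SD, n = 3 each). Of 34 tested 24 were lower and 5 higher in batch 2, or 14 and 8 with library totals. Over all genes tested 31.0% were lower and 38.9% higher on the TMM scale. Their best expressed members, Prosbeta1, Prosbeta5 and Prosbeta4, catalytic and structural beta subunits, were lower by log2 of -0.91, -1.11 and -1.12. Of 25 genes of the V-ATPase, the proton pump, 8 were higher and 10 lower, which lies near the shares over all genes tested. With library totals 14 were higher and 4 lower. The subunit genes Vha36-1 and Vha16-1 were lower by log2 of -1.60 and -1.21. Vha13 was lower by a log2 of -0.31 (adjusted p 0.0319), and was 0.07 with library totals (adjusted p 0.638). Of the 10 housekeeping genes none was higher and 6 were lower in batch 2, and with library totals 4 were higher and 4 lower. Act5C had 5330, 4562 and 4925 CPM in batch 2 and 5040, 3884 and 4201 CPM in batch 1 (adjusted p 0.270) and RpL32 had 1442, 1313 and 1637 CPM in batch 2 and 1091, 1160 and 1429 CPM in batch 1 (adjusted p 0.123). alphaTub84B was lower by a log2 of -1.02 (adjusted p 0.000182).

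The small heat shock genes Hsp23 and Hsp26 were lower in batch 2. Hsp23 (chromosome 3L, 9381882 to 9382765) had 549, 883 and 153 CPM in the batch 2 controls and 7513, 6142 and 4321 CPM in the batch 1 controls (log2 -3.50 ± 0.54, adjusted p 0.000337). Its neighbour Hsp26 (9376418 to 9377427) had 171, 251 and 112 CPM in batch 2 and 4473, 3327 and 2222 CPM in batch 1 (log2 -4.23 ± 0.35, adjusted p 1.16e-05). In both genes the groups lay apart and replicate 3 was the lowest of each batch. Hsp83, the Hsp90 gene, had 1642, 1621 and 1881 CPM in batch 2 and 3508, 3061 and 2099 CPM in batch 1 (log2 -0.75, adjusted p 0.00415, lost with library totals at 0.0972). Of 14 tested genes 8 were lower and 4 higher in batch 2, or 6 and 6 with library totals. Over all genes tested 31.0% were lower and 38.9% higher on the TMM scale. The list took 0.678% ± 0.0766 of the counts in batch 2 and 1.45% ± 0.387 in batch 1 (SD, n = 3 each). Hsp70Aa and Hsp70Ab, among the copies of inducible Hsp70, were among the 4 that were higher, and stayed below 12 CPM in both batches. They were picked after their values were seen. Such copies are similar to each other and multi-mapping reads were not counted, so their levels are uncertain. GstD2, of detoxification, was lower in batch 2, with 475, 314 and 268.5 CPM against 1601, 2398 and 3099 CPM (log2 -2.75, adjusted p 3.42e-05). Antimicrobial peptide genes were near 0, with 1 of 14 detected in batch 2 and none in batch 1. AttD had 22.4, 3.34 and 1.86 CPM in batch 2 and 0.728, 1.64 and 0.781 CPM in batch 1, so its call (log2 3.12, adjusted p 0.00993) came with 1 library far above the rest.

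**Figure D5:**
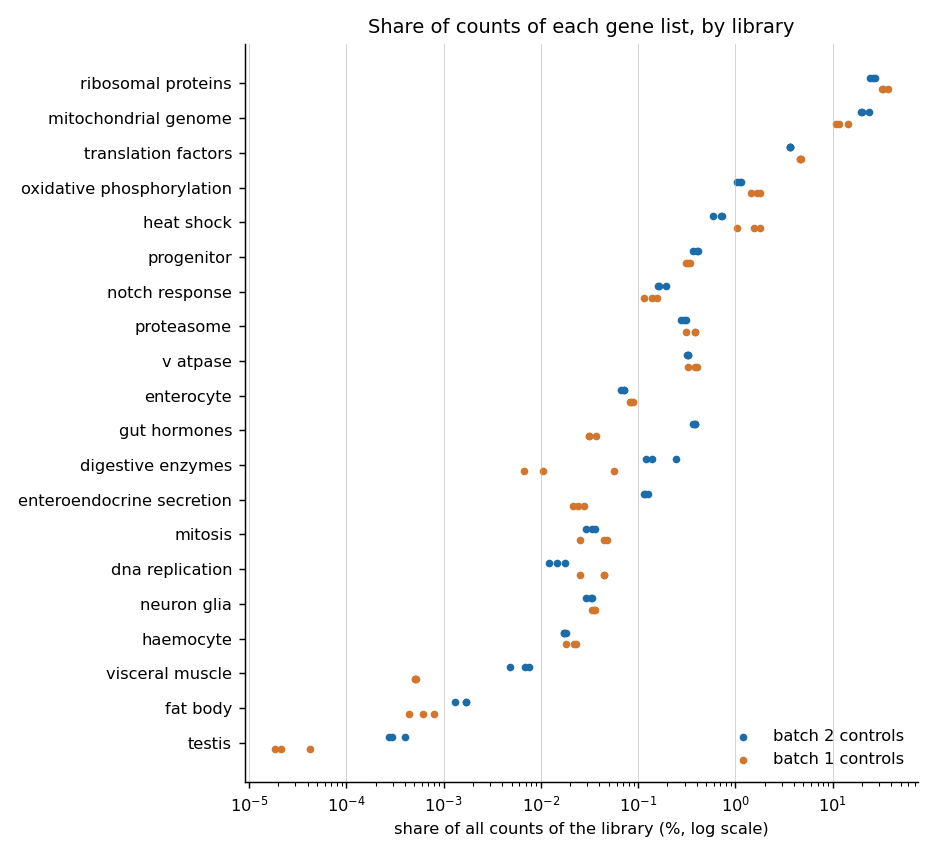
Share of all counts taken by 20 gene lists in each control library, in percent on a log axis, with batch 2 controls above batch 1 controls in each row. Ribosomal proteins span 24.4% to 27.5% in batch 2 and 31.8% to 36.9% in batch 1; gut hormones, digestive enzymes and visceral muscle genes lie higher in batch 2, and DNA replication and heat shock genes lower.

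Markers of other tissues were scarce. Visceral muscle genes summed to 47.8 to 75.5 CPM of unscaled totals in batch 2 and 5.06 to 5.20 CPM in batch 1. All 13 were at least 2-fold higher in batch 2, beside 29.5% of all genes tested, and their median log2 was 3.26. The troponin genes up and wupA had 5.28, 4.57 and 3.10 CPM and 3.11, 2.19 and 2.07 CPM in batch 2, and 0.182, 0.318 and 0.456 CPM and 0.455, 0.577 and 0.423 CPM in batch 1. Sums were on average 15.7 CPM in batch 2 and 6.15 CPM in batch 1 for fat body, and 19.4 CPM in batch 2 and 14.3 CPM in batch 1 for trachea. They ranged from 2.77 to 4.03 CPM in batch 2 and from 0.186 to 0.423 CPM in batch 1 for testis, where 5 of 11 genes were at 0 in batch 1. The ranges were 7.26 to 9.88 CPM in batch 2 and 1.26 to 1.86 CPM in batch 1 for Malpighian tubule, and 6.27 to 7.41 CPM in batch 2 and 3.39 to 6.85 CPM in batch 1 for the female germline. In the lists other than visceral muscle, of which 9 of 13 genes were detected in batch 2 and 1 in batch 1, 0 to 4 genes were detected in batch 2 and 0 or 1 in batch 1. The median log2 of all genes tested was 2.78 at 0.0988 to 0.546 CPM and 1.03 at 0.546 to 3.02 CPM, the range that holds up and wupA. Both medians depend on the filter. What part the members of these tissue lists have in the differences above was not tested.

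Blood cell and nerve lists were carried by genes that are not exclusive to those cells. The scavenger receptor gene crq (117, 111 and 105 CPM in batch 2, 187, 210 and 255 CPM in batch 1) and the GATA factor srp (35.6, 36.8 and 41.2 CPM in batch 2, 16.9, 21.6 and 20.4 CPM in batch 1) made up most of the haemocyte list, whereas the defining haemocyte markers Hml, NimC1 and eater were below 2 CPM in every library. The receptor gene moody took 201 to 234 CPM of the neuron and glia list in batch 2 and 353 to 376 CPM in batch 1, while repo, the glial marker, was below 0.5 CPM. The RNA-binding gene elav, known from neurons, had 23.3, 19.3 and 21.0 CPM in batch 2 and 8.55, 11.3 and 14.7 CPM in batch 1 (log2 0.88, adjusted p 0.00191), and 34.2% of its exon bases overlap another gene. The dosage compensation RNA lncRNA:roX1 had 1.56, 1.91 and 1.43 CPM in batch 2 and 0.212, 0.289 and 0.228 CPM in batch 1.

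For the 30 lists the smallest exact two-sided permutation p of a summed share that 3 libraries against 3 allow is 0.1, or 0.115 after Benjamini-Hochberg adjustment over the lists. That value was reached by all lists other than mitosis (exact p = 0.4), neuron and glia (0.2), female germline (0.3) and housekeeping genes (0.8).

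The 8 genes with the largest rise in batch 2 were led by sequences of ribosomal RNA. 28SrRNA-Psi:CR40741 had 28.2, 32.9 and 31.3 CPM in batch 2 and 0.0910, 0.0289 and 0.0325 CPM in batch 1 (log2 9.17, adjusted p 7.97e-08), and 3 further 28S pseudogenes and the precursor gene pre-rRNA:CR45845 differed in the same way. Such copies are nearly identical to each other and multi-mapping reads were not counted, so their levels are uncertain. The others were CG1801, CG8997 and CG3168, the last with 136, 90.5 and 63.3 CPM in batch 2 and 0.455, 0.895 and 1.14 CPM in batch 1 (log2 6.86, adjusted p 1.79e-06).

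Of the 8 genes with the largest fall, 4 lie side by side on chromosome 2R between 10418718 and 10427915, the peroxiredoxin genes Prx2540-2 and Prx2540-1 with CG11825 and CG12896. CG11825 had 5.74, 8.17 and 6.86 CPM in batch 2 and 191, 299.8 and 798 CPM in batch 1 (log2 -5.96 ± 0.53, adjusted p 1.76e-05). Prx2540-2 had 3.68, 5.18 and 5.63 CPM in batch 2 and 89.4, 142 and 509 CPM in batch 1 (log2 -5.67, adjusted p 6.17e-05). In all 4 the groups lay far apart and batch 1 replicate 3 was the highest. Without that library log2 was -5.20 for CG11825, -4.95 for CG12896, -4.64 for Prx2540-2 and -3.58 for Prx2540-1, against -5.92 for CG12896 and -4.69 for Prx2540-1 with it. The peroxiredoxin copies are similar to each other, so their separate levels are uncertain. The remaining 4 were CG42365, CG9815, CG5348 and CG17145.

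For some of these differences, the other genotypes show whether a whole batch shared them. Mean NPF was 7141 TPM in the batch 2 controls, 11960 TPM with da:da and 5362 TPM with scute, and 127.5 TPM in the batch 1 controls, 441 TPM with da overexpressed and 192.5 TPM with da knocked down. The sequence 28SrRNA-Psi:CR40741 had 36.1 to 47.9 TPM in the batch 2 groups and 0.0414 to 0.0745 TPM in those of batch 1. Means of CG11825 were 4.19 to 9.51 TPM in batch 2 and 145 to 334 TPM in batch 1. Prx2540-1, Prx2540-2 and CG42365 likewise had higher means in every batch 1 group than in any batch 2 group. Other genes also differed between groups of 1 batch. Mean Dl was 29.8 TPM in the batch 1 controls, 22.9 TPM with da overexpressed and 8.76 TPM with da knocked down. In batch 2 it was 7.02 TPM in the controls, 11.2 TPM with da:da and 54.8 TPM with scute. Mean shares of the DNA replication list were 0.0381%, 0.0245% and 0.0173% in those batch 1 groups. They were 0.0148%, 0.0110% and 0.0615% in those batch 2 groups. CG1801 had 7.57 TPM in the batch 2 controls, 0.444 TPM with da:da and 0.477 TPM with scute, all above the 0.00988 to 0.0438 TPM of the batch 1 groups. CG17145 had 1.64 TPM with da knocked down, 1.45 TPM with da overexpressed and 25.2 TPM in the batch 1 controls, against 0.438 to 1.51 TPM in the batch 2 groups. Mean Hsp23 was 4520 TPM with scute in batch 2 and 885 TPM in that batch's controls. The libraries overlapped, with 1351 to 10060 TPM and 253 to 1488 TPM.

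Over the whole order, the batch 2 controls shared 97 of their top 100 genes with da:da and 90 with scute, and the batch 1 controls shared 95 with da overexpression and 96 with da knock-down. Across genes Spearman's rho was 0.963 with da:da, 0.848 with scute, 0.949 with da overexpression and 0.966 with da knock-down, beside 0.922 between the 2 control groups. These groups share a layout within a batch, and the values are descriptions.

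Replicates of one batch were close. The biological coefficient of variation, the relative spread of true levels between replicates, was 0.172 in batch 2 and 0.179 in batch 1. The 6 genes with the largest spread in whichever batch varied less were CG16826, whe, Bace, CG17192, CG12374 and Jon65Aiv. CG12374 had 234, 447 and 619 CPM in batch 2 and 199, 1.96 and 12.8 CPM in batch 1, and Bace had 59.5, 107 and 330.4 CPM in batch 2 and 55.0, 3.72 and 9.63 CPM in batch 1. In both, batch 1 replicate 1 stood above its fellows as it did for Jon65Aiv. CG16826 had 270.1, 112 and 0.104 CPM in batch 2 and 47.1, 32.9 and 0.163 CPM in batch 1, and whe had 73.3, 31.6 and 0.0521 CPM in batch 2 and 31.2, 16.2 and 0.0651 CPM in batch 1. For these genes replicate 3 was near 0 in each batch.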

How the data were processed

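Raw read counts per gene were deposited for each library, made by the authors with featureCounts 2.0.2 on exons of BDGP6.28, annotation release 101, per the file headers, with no strand option, no multi-mapping reads and no reads that overlap several genes. Per the file headers, batch 2 was given as paired input but not counted by pair, so each mate added 1 count. Of counts from 1 to 30, 55.2% to 56.8% were even in batch 2 controls and 41.6% to 44.2% in batch 1 controls. The aligner is not given in the sources used here beyond a folder name. Symbols came from the authors' deposited tables for 9986 of 17807 genes and from a later annotation for 7762, and 59 had none. Those tables also hold the authors' log2 fold changes and their adjusted p-values, made with DESeq2 per their title sheet, and none of these deposited values was used.

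Tests were run with edgeR 4.0.16, which needs limma 3.58.1, on R 4.3.3; DESeq2 1.42.0 served as an alternative, and summaries were made in Python 3.11.15. After filterByExpr and TMM scaling, the quasi-likelihood test with Benjamini-Hochberg adjustment set the batch 2 controls against the batch 1 controls. All adjusted p of single genes come from this test. SE is that of the log2 difference. The fit was tested on simulated counts in which only a small part of the genes changed. Most genes were called in the real data, so that test cannot check the TMM scaling. No conclusion is drawn from it. Exact permutation tests were used for summed shares of 30 lists. Alternatives were DESeq2, other size factors, other filters, a fit of all 17 libraries, a replicate block, halved batch 2 counts, no mitochondrial genes, a 2-fold threshold and leaving out each library; library totals without TMM and list counts without batch 1 replicate 3 were added after the data were seen. The members, lists and tests were chosen with earlier results of these data known.

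Named genes were the 10 nuclear genes with the highest level per kilobase in each batch, the 8 largest rises and 8 largest falls (called, groups apart, 10 CPM or above averaged over the 6 libraries), 15 fixed genes, the 3 best expressed members of each list, the 6 most variable genes, and the 3 genes per batch that lost most ranks from the top 100. Other genes named in the text were picked after their values were seen. Some genes that the rule names, mostly markers of other tissues, are covered only by the values of their list or are not reported here. Of the genes listed, 5617 share exon bases with another gene, 1392 of them with most of their exon bases. Pools were separate, so p-values measure the spread between pools within a batch and not between batches. Nplp2 had no matching symbol.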

Additional observations from a re-analysis of the deposited data

How the results depend on the processing

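Counts of called genes, 7998 in all, 4446 higher and 3552 lower in batch 2, moved by over 1.5 times in 4 cases. A 2-fold threshold gave 4888 in all and 1509 lower. A stricter filter, with 8292 genes tested, gave 2860 higher, beside 2691 lower. Library totals without TMM, added after the data were seen, gave 2052 lower. Leaving out 1 library at a time gave 7177 to 8901 in all, 4000 to 5152 higher and 3150 to 3749 lower. The labels give both groups replicates 1 to 3, and the main fit did not pair them. Correlations of same-numbered deviations were weak, at -0.0514, 0.024 and 0.0915. Not every library correlated best with its own number, although replicate 3 of each batch did. Correlations over all genes cannot exclude a factor shared by same-numbered libraries in a few genes. With the replicate block 7696 genes were called, 4282 higher and 3414 lower, and CG16826, whe, Jon65Aiv, Jon65Aiii, CG12374 and RpS30 gained a call while Vha13 lost one. The neuron and glia share turned to 0.000668 percentage points higher in batch 2 without mitochondrial genes, and the housekeeping difference ranged from -0.0573 to 0.0676 without 1 library. The cause was not tested.

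Of the named genes, 12 changed sign in some setting, all but Vha13 uncalled to begin with. With library totals log2 became 0.10 for emc, 0.28 for lin-28, 0.0653 for spi, 0.25 for Socs36E, 0.35 for cad, 0.22 for CycA, 0.0723 for Vha13 and 0.0860 for futsch. With the stricter filter it became 0.0533 for lin-28, 0.0333 for Socs36E, 0.12 for cad and 0.0076 for CycA. Without 1 library at a time the ranges were -0.0951 to 0.53 for nub, -0.25 to 0.0339 for lin-28, -0.0979 to 0.21 for E(spl)malpha-BFM, -0.56 to 0.0561 for Socs36E, -0.24 to 0.0545 for cad, -0.13 to 0.34 for NaPi-T and -0.35 to 4.09 for CG17192. Over 128 genes, 1791 values kept their direction and side of the threshold, 42 gained a call and 48 lost one. RpL36, E(spl)mbeta-HLH, sty, Sox100B, Drs and Bace also lost their calls in some setting. Depth limits the genes under about 1 CPM.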

Other observations

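A search made after the data were seen, for genes whose log2 level in 1 replicate number lay at least 1.5 beyond both others in both batches, found 4 genes, all lower in replicate 3, and none for the other numbers or directions. They were CG16826 (chromosome 2L, 13347773 to 13349020), whe (X, 21402339 to 21402772), CG45080 (3R, 13318991 to 13319270) and CG33109 (3R, 14220560 to 14221584), which are not neighbours. In unscaled CPM, CG16826 had 309.2, 127 and 0.120 in the batch 2 controls and 41.1, 30.3 and 0.135 in the batch 1 controls. It was also near 0 in da:da replicates 1 and 2 (0 and 0.148) and scute replicates 1 and 2 (0.0970 and 0.166), against 143 and 496 in replicate 3 of those groups. It had 119, 69.2 and 16.7 with da knocked down and 10.3 and 5.15 with da overexpressed. The gene whe had 0 and 0.0424 in da:da replicates 1 and 2, 0 and 0.121 in scute replicates 1 and 2, and 16.3 and 48.0 in replicate 3 of da:da and scute. CG33109 had 0.170 and 0.127 in da:da replicates 1 and 2, 0.243 and 0.227 in scute replicates 1 and 2, and 6.58 and 67.3 in replicate 3. With da overexpressed the genes parted, since CG33109 had 0.0878 and 0.0765. CG45080 had 9.45 and 29.8 in replicate 3 of da:da and scute and 0.166 to 0.420 in their replicates 1 and 2.

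Outside the mitochondrial genome, genes of chromosome 2R took 22.02% ± 0.195 of the counts in batch 2 controls and 25.5% ± 0.135 in batch 1 controls, and genes of the X chromosome took 18.1% ± 0.286 in batch 2 controls and 15.1% ± 0.0677 in batch 1 controls (SD, n = 3 each). The median log2 of detected genes was -0.37 on 2R, -0.02 on X, 0.23 on chromosome 4, which has 56 such genes, and -0.31 to -0.27 on 2L, 3L and 3R.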
